A study of Homo sapiens with 4 samples.

Results

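Membrane transporters, pumps and ion channels are the proteins through which a cell takes up nutrients, moves metals and ions and exports waste. Solute carriers (SLC proteins) move amino acids, sugars, vitamins, nucleobases and metal ions along or against their gradients, often by coupling one solute to another. ABC pumps, P4-type lipid flippases and the vacuolar proton pump (V-ATPase) use ATP, whereas channels let ions flow down their gradient. In proliferating colorectal carcinoma cells such carriers supply amino acids and vitamins for growth.

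The transporter set described here holds 20 probe sets of the 33297 on the array. They are the entries of the authors' deposited list of genes going up or down whose symbol begins with the prefix of a solute carrier, an ABC pump of families A to D or G, an ATP-driven ion or lipid pump, or an ion or water channel, with SLC7A11 left out. That table names 759 probe sets, so 739 other named ones remain. The table was chosen by its authors on the same arrays and the same contrast as the values below. The differences between groups are therefore given as a description, and no test of them is independent of the choice.

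HCT116 is an established human colorectal carcinoma cell line. In SH PCAF the cells were transfected with a short hairpin RNA (shRNA) against PCAF, and the labels call them PCAF knock-down. PCAF, whose current symbol is KAT2B, is an acetyltransferase of lysines on histones and other proteins. In SH Ctrl the cells were transfected with a control shRNA and are called wild-type by the labels. Both groups grew asynchronously, and total RNA was measured on 2 single-colour Affymetrix arrays per group. The labels say neither whether the replicates were separate cultures nor which hairpin sequences were used, so the spread between arrays may be technical. Each probe set has 1 log2 signal per array, on which a difference of 1 is a doubling. Array medians were 7.03 and 7.02 in SH PCAF and 7.08 and 7.10 in SH Ctrl. The Pearson correlation over probe sets was 0.995 between the SH PCAF arrays, 0.997 between the SH Ctrl arrays and 0.987 to 0.989 between arrays of different groups. No probe set is paired with KAT2B in the sources used here, so the knockdown has no check in these values. Gene symbols come only from the authors' table, so KAT2B is not named there as going up or down. Of 8 colorectal epithelial markers the table names CDH1 alone, which was 1.10 ± 0.13 (moderated SE) higher in SH PCAF on the log2 scale. None of the 14 fibroblast, endothelial and macrophage markers is named there. CD22, the 1 of 4 lymphocyte markers named, averaged 8.44 in SH PCAF and 6.90 in SH Ctrl, and its part in the differences below was not tested.

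Member promoters were searched for 5 motifs, and the matches to the rarest of them, the C/EBP-ATF response element (CARE), and to the E-box are shown before the values. CARE is the composite motif bound by ATF4 with a C/EBP partner. Promoter sequences are RefSeq's, on GRCh38.p14, from 250 bases before to 50 after each annotated start, and 13 member genes have an entry, 8 of them higher and 5 lower in SH PCAF. Among those without an entry, and so not searched, are ABCC3, KCNG1, SLC25A37, ATP11B and SLC43A3. The letters searched were TGATGNAAN on both strands. Matches lay in 3 of the 13 genes (23.1%), all of them among the 8 that were higher, against 4.45% of the 27305 genes in the table of promoters and 3.60% of the protein-coding ones. Each window below has 30 bases, written on the strand of the gene with the match in capitals.
SLC1A4: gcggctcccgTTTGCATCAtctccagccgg
SLC7A1: ggcgcactgcTGATGAAACctggcgccgga
SLC39A11: cgagagagtggcagcgggggcTGATGGAAG
The SLC1A4 window lies at chr2:64989381-64989410 on the plus strand, and its match, at position -8 from 1 of its 2 annotated starts, reads on the opposite strand of the gene. The SLC7A1 window lies at chr13:29595662-29595691 on the minus strand, with the match at position 8 after the start. The SLC39A11 window lies at chr17:73092639-73092668 on the minus strand, with the match at position 42 after the start. A match is a run of letters and shows no binding. The other 10 genes lack these letters in this window, and nothing about ATF4 is drawn from that.

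The E-box CACGTG, a palindrome bound by MYC, by TFE3 and TFEB and by other basic helix-loop-helix factors, was found in 6 of the 13 genes (46.2%), against 8.77% of all genes in the table of promoters and 10.9% of the protein-coding ones. It was present in 4 of the 5 genes with an entry that were lower in SH PCAF and in 2 of the 8 that were higher. The windows of the genes that were lower are shown first, and those of the genes that were higher after them, to set the flanks side by side, with the E-box in capitals.
ATP6V0B, distal: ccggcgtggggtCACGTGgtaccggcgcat
ATP6V0B, proximal: gtaccggcgcatCACGTGggcgagttaggt
SLC38A5: tcctgtagcggaCACGTGgcttgcctggga
SLC25A22: ctggctggggtgCACGTGagccccgagcgt
SLC19A1: ttcgcgcccaggCACGTGttgcttcgggac
SLC43A1: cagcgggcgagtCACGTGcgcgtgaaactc
SLC39A11: aggcgggagggcCACGTGtgcgggagggaa
ATP6V0B alone held the motif at more than 1 position, -57 and -39 from its start (chr1:43974891-43974920 and chr1:43974909-43974938, plus strand). The SLC38A5 match begins at -206 (chrX:48470449-48470478), the SLC25A22 match at -3 of 1 of its 4 annotated starts (chr11:795418-795447), and the SLC19A1 match at 33 after 1 of its 4 starts (chr21:45541797-45541826), each on the minus strand. The SLC43A1 match begins at -112 of 1 of its 2 starts (chr11:57515797-57515826, minus strand) and the SLC39A11 match at -27 (chr17:73092698-73092727, minus strand). A gene with several annotated starts has more windows in which a match can fall: counted by promoter, 6 of the 22 member promoters held an E-box, against 7.26% of all promoters. Every E-box also holds ACGTG, the core of the hypoxia response element, which lay in 8 of the 13 genes (4 of the 8 higher and 4 of the 5 lower), against 28.5% of protein-coding genes. The antioxidant response element core TGACNNNGC lay in 5 genes (38.5%), against 17.9% of protein-coding genes, and these were 2 of the 8 higher and 3 of the 5 lower. The GC box GGGCGG lay in 12 genes (92.3%), against 64.3%, and these were 7 of the 8 higher and 5 of the 5 lower. With 13 genes and 5 motifs, none of these splits by direction was tested.

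Of the 20 transporter probe sets, 13 were higher and 7 lower in SH PCAF. The 13 that were higher differed by 0.74 to 2.47 on the log2 scale, or 1.67- to 5.55-fold, and 7 of them by at least 1. The 7 that were lower lay between -0.86 and -0.71, or 1.63- to 1.81-fold, and none reached 1. The share that was higher, 65%, was close to that of the other 739 named probe sets (68.9%), and the median size of the difference was 0.86, against 0.91 in those. The median difference was 0.85 over the members, against 0.80 over the other 739 and -0.05 over all probe sets. The first 2 of these medians are taken within the authors' table, where 522 probe sets were higher and 237 lower. Of all probe sets 39.3% were higher. What sets the medians apart was not tested. In all 20 both SH PCAF arrays lay beyond both SH Ctrl arrays, which was also so for 59.1% of all probe sets (23.1% higher and 36.0% lower). All 20 passed the moderated test of limma (Benjamini-Hochberg over all probe sets), with adjusted p from 0.00724 to 0.0240, where 12.9% of all probe sets passed (7.05% higher and 5.85% lower). As the table was picked on these arrays, nothing is read from either count.

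**Figure D1:**
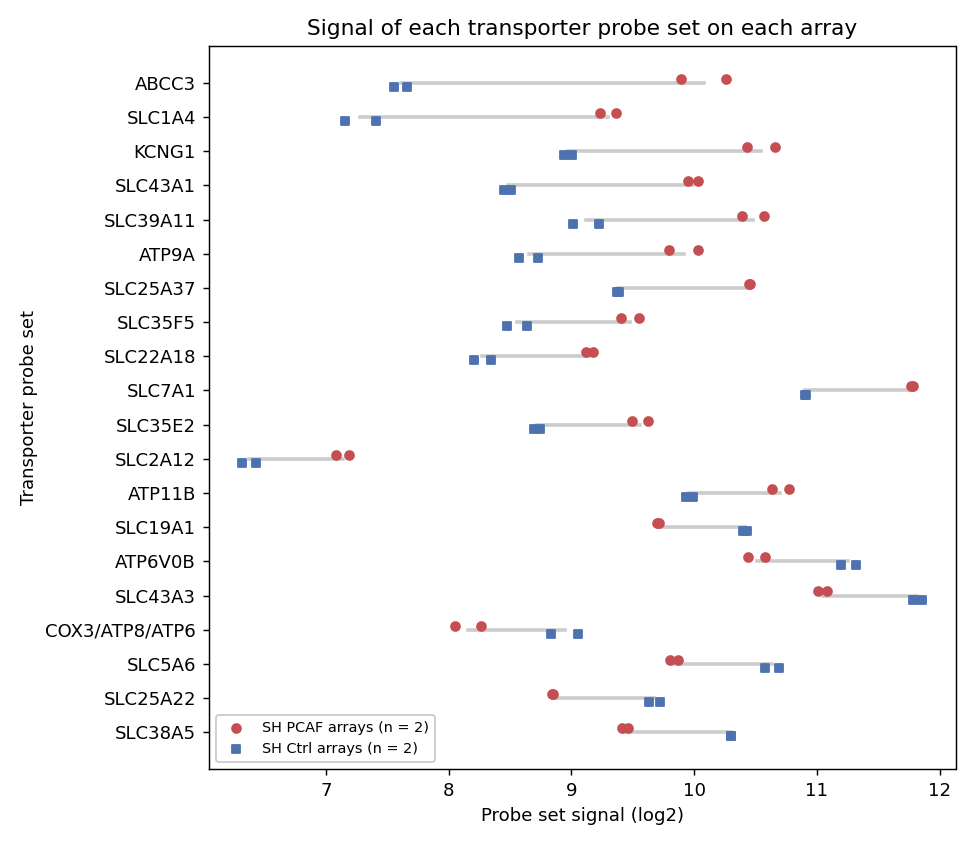
Log2 signal (horizontal axis) of the 20 transporter probe sets (vertical axis, ordered by difference), with circles for the 2 SH PCAF arrays, squares for the 2 SH Ctrl arrays and a grey line joining the group means. The circles and squares of a probe set never overlap, with gaps from 0.57 for the probe set of COX3, ATP8 and ATP6 to 2.24 for ABCC3.

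Among the amino acid transporters, 3 of the 4 members were higher and 1 was lower. SLC1A4 (ASCT1), an exchanger of small neutral amino acids such as alanine, serine and cysteine, had signals of 9.23 and 9.36 in SH PCAF, against 7.15 and 7.40 in SH Ctrl. Both SH PCAF arrays were thus at least 1.83 above the higher SH Ctrl array, and the difference of 2.02 ± 0.11 (moderated SE, here and after every difference below) is 4.05-fold. SLC43A1 (LAT3), which carries leucine and other large neutral amino acids, had 9.95 and 10.03 in SH PCAF, against 8.45 and 8.51 in SH Ctrl. The arrays of each group lay close together and the difference was 1.51 ± 0.07, or 2.85-fold. SLC7A1 (CAT1), the importer of the cationic amino acids arginine and lysine, had 11.78 and 11.77 in SH PCAF, against 10.90 and 10.91 in SH Ctrl. Its arrays were no further apart than 0.012 within a group, and the difference was 0.87 ± 0.07, or 1.82-fold.

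SLC38A5 (SNAT5) went the other way. This sodium-coupled carrier of glutamine, asparagine, serine and glycine had 9.41 and 9.46 in SH PCAF, against 10.30 on both SH Ctrl arrays. It was the largest fall of the transporter set, by 0.86 with an SE of 0.07, or 1.81-fold. Of these 4 genes, SLC1A4 and SLC7A1 had the CARE matches shown above, and the E-box was found in SLC43A1, which was higher, and in SLC38A5, which was lower. SLC7A11, the cystine and glutamate exchanger that stands outside the set, averaged 12.62 ± 0.04 in SH PCAF and 10.24 ± 0.26 in SH Ctrl (SD, n = 2 each), a difference of 2.37 ± 0.14.

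**Figure D2:**
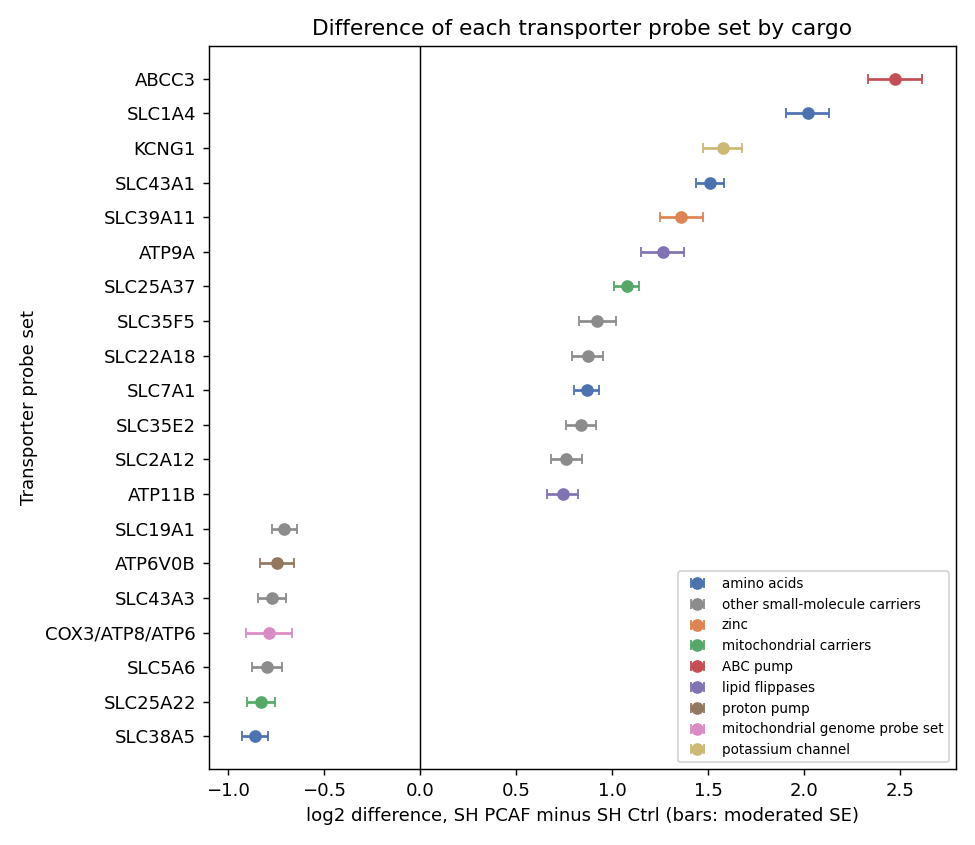
Log2 difference of SH PCAF minus SH Ctrl (horizontal axis) for each transporter probe set (vertical axis), coloured by what the protein carries, with moderated standard errors as bars (2 arrays per group). The amino acid carriers SLC1A4, SLC43A1 and SLC7A1 lie at 2.02, 1.51 and 0.87 and SLC38A5 at -0.86, and the mitochondrial carriers SLC25A37 and SLC25A22 lie on opposite sides of 0.

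SLC19A1, SLC5A6 and SLC43A3, carriers of vitamins or nucleobases, were lower. They were not 1 class of the plan. SLC19A1 shared its planned class with SLC22A18, which was higher by 0.87, and SLC5A6 and SLC43A3 were in no planned class. SLC19A1, the reduced folate carrier, had 9.70 and 9.71 in SH PCAF, against 10.43 and 10.40 in SH Ctrl, and was lower by 0.71 ± 0.07. SLC5A6, the sodium-dependent multivitamin transporter for biotin and pantothenate, had 9.80 and 9.87 in SH PCAF, against 10.69 and 10.58 in SH Ctrl. SLC43A3, an equilibrative transporter of purine nucleobases from the same family as SLC43A1, had 11.01 and 11.08 in SH PCAF, against 11.85 and 11.79 in SH Ctrl. These are 1.63-, 1.74- and 1.71-fold differences, and all 7 falls of the set lay between 1.63- and 1.81-fold. SLC43A3 and SLC43A1 are near neighbours on chromosome 11, with 1 protein-coding gene, RTN4RL2, between them in the RefSeq annotation (GRCh38.p14), and they differed in opposite directions, by -0.77 ± 0.07 and 1.51 ± 0.07.

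The mitochondrial carriers also went both ways. SLC25A37, mitoferrin-1, which imports iron into mitochondria, had 10.45 on both SH PCAF arrays, against 9.38 and 9.37 in SH Ctrl, a difference of 1.08 ± 0.07 or 2.11-fold. SLC25A22, a mitochondrial glutamate carrier, had 8.85 and 8.84 in SH PCAF, against 9.72 and 9.63 in SH Ctrl, and was lower by 0.83 ± 0.07. A further probe set, met by the rule through the symbol ATP8, is shared by 3 genes of the mitochondrial genome. They are ATP8 and ATP6, subunits of ATP synthase, and COX3, a cytochrome c oxidase subunit, so this entry is neither a flippase nor a single gene. It had 8.05 and 8.27 in SH PCAF, against 8.83 and 9.05 in SH Ctrl. Its difference of -0.79 ± 0.12 had the smallest gap between groups of the 20, 0.57, and its adjusted p (limma) of 0.0240 was the highest of the set.

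The pumps of the set were led by ABCC3. ABCC3 (MRP3) exports bile salts and glucuronide and glutathione conjugates from epithelial cells. It had 10.26 and 9.90 in SH PCAF, against 7.66 and 7.56 in SH Ctrl, a difference of 2.47 ± 0.14, or 5.55-fold. The SH PCAF arrays were 0.37 apart, the widest distance between arrays of a group among the members, and the groups were separated by 2.24. By size of the rise ABCC3 stood at rank 10 and SLC1A4 at rank 25 of the 522 probe sets that the table gives as up. The largest fall, SLC38A5, stood at rank 117 of the 237 given as down.

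Both lipid flippase genes in the set were higher. Flippases of this P4 type move phospholipids to the cytosolic leaflet of a membrane. ATP9A, an endosomal member, had 10.03 and 9.80 in SH PCAF, against 8.73 and 8.57 in SH Ctrl, a 2.40-fold difference. ATP11B had 10.63 and 10.77 in SH PCAF, against 9.93 and 9.99 in SH Ctrl, which was the smallest rise of the set at 0.74 ± 0.08. The 1 subunit of the V-ATPase, ATP6V0B, part of its membrane-embedded proton channel, was lower. Its signals were 10.58 and 10.44 in SH PCAF, against 11.32 and 11.19 in SH Ctrl, a difference of -0.75 ± 0.09. It is measured by 1 of the 4201 probe sets with the lowest identifiers, whose nature no file states. The remaining V-ATPase subunits are not in the table, so ATP6V0B says nothing of the whole pump.

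The 1 ion channel gene of the set was KCNG1, which encodes Kv6.1. This potassium channel subunit does not form a channel alone and changes the gating of Kv2 channels with which it assembles. Its signals were 10.66 and 10.43 in SH PCAF, against 9.004 and 8.935 in SH Ctrl, a difference of 1.57 ± 0.10, or 2.98-fold. KCNG1 and ATP9A lie on chromosome 20 with 2 protein-coding genes between them in that annotation, neither of them in the authors' table, and both were higher. No calcium, sodium, TRP or chloride channel of the prefixes used, and no aquaporin, is in the table, which is no measurement of them.

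The solute carriers not yet described were higher, and they form no class of their own. SLC39A11 (ZIP11), a zinc transporter, had 10.57 and 10.39 in SH PCAF, against 9.22 and 9.01 in SH Ctrl, a difference of 1.36 ± 0.11 or 2.57-fold. SLC35F5 and SLC35E2 belong to a family that includes nucleotide sugar transporters, and their own cargo is less well known. SLC35F5 had 9.41 and 9.55 in SH PCAF, against 8.63 and 8.47 in SH Ctrl, and SLC35E2 was 1.79-fold higher in SH PCAF. The symbol SLC35E2 is shared by the current genes SLC35E2A, a pseudogene, and SLC35E2B, and the signal cannot be assigned to either. SLC22A18, an organic cation transporter-like protein that RefSeq now names SLC67A1, had 9.18 and 9.12 in SH PCAF, against 8.21 and 8.34 in SH Ctrl. SLC2A12 (GLUT12), a facilitative glucose transporter, had 7.08 and 7.19 in SH PCAF, against 6.43 and 6.32 in SH Ctrl. Its SH Ctrl signals were below those arrays' medians. No measure of background is given, which limits what can be said of its 1.70-fold difference.

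**Figure D3:**
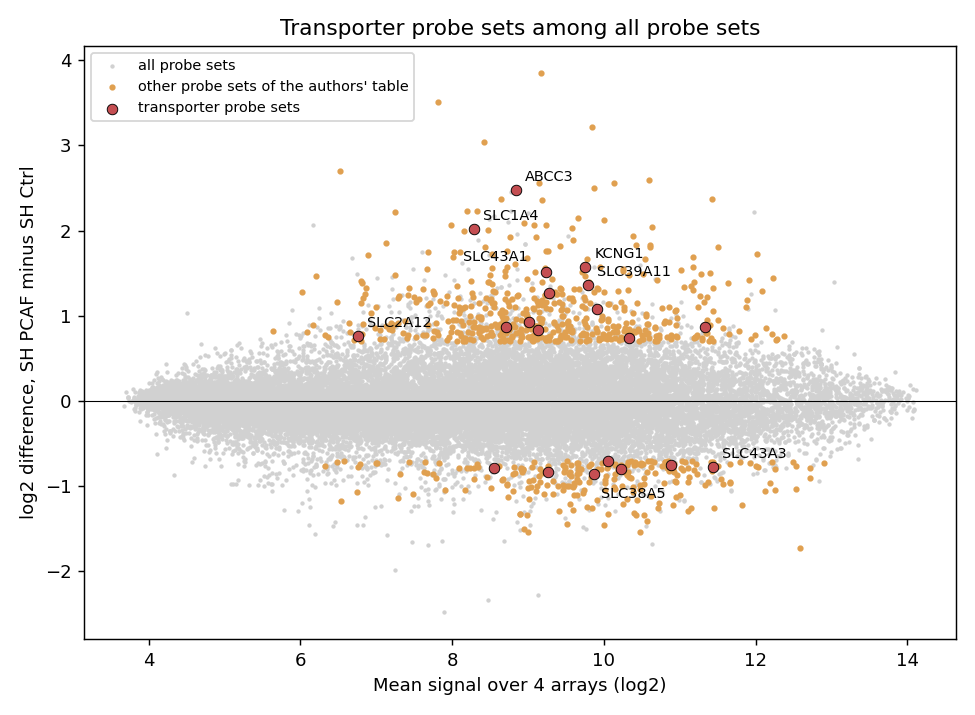
Log2 difference of SH PCAF minus SH Ctrl (vertical axis) against the mean log2 signal over the 4 arrays (horizontal axis) for all 33297 probe sets (grey), the other 739 probe sets of the authors' table (orange) and the 20 transporter probe sets (red, some named). The members lie among the orange points on both sides of 0, with ABCC3 highest at 2.47 and SLC38A5 lowest at -0.86.

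The members varied widely in how closely their replicate arrays lay together. The distance between the 2 arrays of a group had a median of 0.12 over the members in SH PCAF and 0.09 in SH Ctrl, close to the 0.10 and 0.09 over all probe sets. The difference between groups was 3.53 to 70.7 times the larger of these distances, with a median of 6.87. SLC7A1 and SLC25A37, with arrays at most 0.012 and 0.016 apart, had the highest ratios, 70.7 and 65.4, although ABCC3 and SLC1A4 differed more between groups. In all 20 the gap between the groups was wider than the larger distance within a group, as it was in 30.0% of all probe sets. Since the table was chosen on these arrays, nothing is read from that count.

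**Figure D4:**
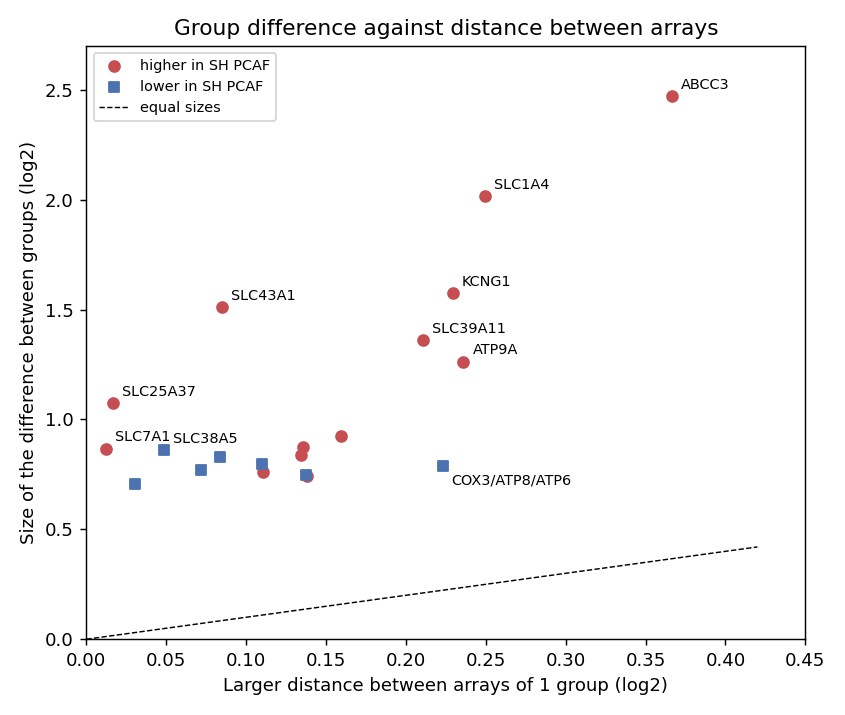
Size of the log2 difference between groups (vertical axis) against the larger distance between the 2 arrays of 1 group (horizontal axis) for the 20 transporter probe sets, with circles for those higher and squares for those lower in SH PCAF. All points lie above the dashed line of equal sizes, the probe set of COX3, ATP8 and ATP6 being nearest to it by ratio (3.53) and SLC7A1 farthest (70.7).

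The table behind the set stops at a log2 difference of 0.70. The members nearest to that limit were SLC19A1 at -0.71 and ATP11B at 0.74. Just outside lay unnamed probe sets at 0.70 and -0.70, and 870 probe sets outside the table differed by at least as much as its smallest entry, so carriers absent from it may have differed as well. What the authors' deposited table heads fold change was not a fold of these signals: for the members it was 2.13 to 2.15 times the size of the log2 difference. The authors' deposited table thus gives ABCC3 as 5.29 and SLC38A5 as 1.84, where the signals give folds of 5.55 and 1.81, and for 11 of the 20 members the authors' deposited table has the larger number.

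Other transport genes were looked up in a list of 125. It was made of SLC7A11, which the rule leaves out, and of channels, pumps, accessory subunits and regulators outside the prefixes. A second list held the 8 protein-coding genes whose current RefSeq symbol begins with MFSD, so a family member under another symbol would be missed. The table named 7 of the 125, 6 of them higher and 1 lower, with SLC7A11, given above, among the 6. It named 2 of the 8, 1 in each direction. Of all 33297 probe sets the table names 759, of which 68.8% were higher, and nothing is read from these splits. TMC4, a TMC family membrane protein, was 2.95-fold, the chloride channel bestrophin BEST1 2.61-fold and CLIC4, of the chloride intracellular channel family, 2.50-fold higher. The anoctamin ANO9 was 1.92-fold and P2RX4, an ATP-gated cation channel, 1.67-fold higher. MPC2, a subunit of the mitochondrial pyruvate carrier, averaged 9.06 ± 0.08 in SH PCAF and 9.89 ± 0.12 in SH Ctrl (SD, n = 2 each), 1.78-fold lower. MFSD6 was 1.70-fold higher, and MFSD2A, which carries lysophosphatidylcholine, was 2.52-fold lower. As all of these come from the same table, a gene absent from it has no value here.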

How the data were processed

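The 4 single-colour arrays of HCT116 RNA were grouped by sample title. The authors deposited log2 probe set signals. Per the submitters' processing notes, Affymetrix Expression Console and limma were used, with neither roles nor versions stated. The sources used here give no summarization, normalization or genome build. The log2 scale was read from the range of values. Without scanner files, background and scan batches were not checked. The authors' deposited table holds, line by line, a gene symbol, a p-value and a number under the heading fold change, and gene symbols came from it. The deposited p-values were not used. Of the 20 members, 18 had a current RefSeq symbol (GRCh38.p14), 1 was updated from a synonym and 1 symbol is shared by several genes.

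SH PCAF minus SH Ctrl was fitted by lmFit and eBayes of limma 3.58.1 (R 4.3.3), with no covariate, filter or further normalization, on all 33297 probe sets, with Benjamini-Hochberg adjustment and a threshold of 0.05. Errors after a difference are moderated standard errors. The fit was tested on simulated data. Alternatives were other scalings, a filter, a replicate block, another variance prior and threshold, and each array left out. The members and gene lists were chosen with earlier results of these data known. Every member with 1 symbol could be named. Array values were planned for the 10 largest rises and all falls among members with 1 symbol, and for the amino acid carriers. Those of SLC2A12 and ATP11B were added after their values were seen. Those of the probe set of COX3, ATP8 and ATP6, which has more than 1 symbol, were also outside the plan. With 2 arrays per group, their number limits the precision.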

Additional observations from a re-analysis of the deposited data

How the results depend on the processing

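All 20 transporter probe sets kept their direction under every alternative that held them. Counts of 13 higher and 7 lower by limma (adjusted p below 0.05) also stood under quantile normalization, median centring and the replicate block (13 and 7). They stood as well under an intensity trend with a robust prior and a filter that left out the dimmest 25% of probe sets. Over all probe sets the calls rose from 2346 higher and 1948 lower to 2456 and 2028 (quantile) and 2454 and 2130 (block). They were 2521 and 2144 with the trend, and 2629 and 2190 of the 24972 probe sets that the filter kept. At an adjusted p below 0.01 the members' counts were 6 and 1, and those over all probe sets 213 and 75. The 19 single-symbol members, without the probe set of COX3, ATP8 and ATP6, gave 13 and 6. Leaving out the block of low identifiers, an alternative chosen after seeing the data, removed ATP6V0B and also gave 13 and 6 of 19 members. Of the 29096 probe sets then kept, 2950 were called higher and 2369 lower. Leaving out 1 array gave 0 to 13 higher and 0 to 7 lower members by limma, and 0 to 1227 and 0 to 1142 over all probe sets. The counts were 0 without SH Ctrl replicate 1 or 2, where limma's lowest adjusted p over all probe sets were 0.0767 and 0.0839, although all 20 members kept an unadjusted p below 0.05, as did 6848 and 6849 of all probe sets. The fit then has 1 SH Ctrl array, taken to vary like the SH PCAF ones. Without SH PCAF replicate 1 the probe set of COX3, ATP8 and ATP6 no longer passed (limma, adjusted p = 0.0611). Without SH PCAF replicates 1 and 2 in turn, 1227 and 1221 of all probe sets were called higher and 706 and 1142 lower, against 2346 and 1948 with all arrays. Median centring gave 3012 and 1419, 68.0% higher against 54.6%, and moved each member by 0.06. The members' median difference was 0.81 to 0.91 over the alternatives under which it was computed. The replicate numbers are not stated to pair arrays. Deviations of same-numbered arrays correlated at 0.25, and the replicate block changed no call of a member. Signal over background was not measured, which limits what can be said of the dimmest member, SLC2A12.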

Other observations

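TMEM180, listed under a symbol outside the prefixes and now named SLC68A1 by RefSeq, is a further entry of the authors' table. It is set beside the solute carriers by that current symbol alone. It averaged 9.88 ± 0.06 in SH PCAF and 10.78 ± 0.07 in SH Ctrl (SD, n = 2 each), lower by 0.89 on the log2 scale, which is more than the fall of any of the 20 members. It was found after the values were seen.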
